A study of Mus musculus with 12 samples.

Results

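The neuromuscular junction genes are 10 genes chosen by name: Chrna1, Chrnb1, Chrnd and Chrne for subunits of the muscle acetylcholine receptor, Agrn, Musk, Dok7 and Rapsn for the machinery that gathers the receptor under the nerve ending, Colq for the anchor of acetylcholinesterase, and Ncam1 for a cell adhesion molecule of the junction. Of these, 9 were among the 10475 genes of the authors' transcript abundance table (TPM, a read count scaled by transcript length and by the library's total), and all 9 passed the filter of at least 1 TPM in at least 3 libraries. Chrnd was not among the genes of that table. RNA came from the gastrocnemius, a calf muscle, of 8-week-old C57BL/6 mice on chow under 12 h of light and 12 h of dark. The 4 groups, with 3 poly(A) RNA-seq libraries each, were TG mice at ZT12, WT mice at ZT12, TG mice at ZT0 and WT mice at ZT0, where TG mice carry a transgene that overexpresses E4BP4 in the liver, WT mice are wild type, and ZT0 and ZT12 (Zeitgeber time) are the hours of lights on and lights off. E4BP4, the product of Nfil3, is a transcriptional repressor tied to the circadian clock. The labels do not name the promoter that drives the transgene, and nothing in them ties each library to a mouse of its own, so p-values measure the spread between these libraries.

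At the neuromuscular junction a motor nerve ending faces a small patch of the muscle fibre that is packed with acetylcholine receptors. The nerve releases agrin, which acts through its receptor LRP4 on the muscle kinase MuSK, and MuSK with its adaptor DOK7 and the scaffold rapsyn holds the receptors in place. The few nuclei under the patch transcribe these genes far more than the other nuclei of the fibre, whereas loss of innervation makes the whole fibre transcribe several of them again. In RNA of a whole muscle, fewer junctional nuclei and less RNA per nucleus cannot be told apart.

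Upstream sequence of the receptor subunit genes is shown because the known elements of synaptic and myogenic transcription lie there, and because E4BP4 is itself a DNA-binding factor. The runs are the 250 bases before the gene start in the RefSeq promoter table (GRCm38.p6), 5′ to 3′ on the minus strand, for Chrne at chr11:70619195-70619444, Chrna1 at chr2:73580339-73580588 and Chrnb1 at chr11:69795938-69796187. Capitals mark the E-box CANNTG, the motif of myogenic factors such as MyoD, and the N-box CCGGAA, the motif of ETS factors such as GABP.
Chrne: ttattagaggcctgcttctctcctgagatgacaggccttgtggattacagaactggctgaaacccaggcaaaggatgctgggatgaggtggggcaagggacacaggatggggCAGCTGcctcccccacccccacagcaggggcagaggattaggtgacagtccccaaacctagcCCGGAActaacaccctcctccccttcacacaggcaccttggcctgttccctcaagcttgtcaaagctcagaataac
Chrna1: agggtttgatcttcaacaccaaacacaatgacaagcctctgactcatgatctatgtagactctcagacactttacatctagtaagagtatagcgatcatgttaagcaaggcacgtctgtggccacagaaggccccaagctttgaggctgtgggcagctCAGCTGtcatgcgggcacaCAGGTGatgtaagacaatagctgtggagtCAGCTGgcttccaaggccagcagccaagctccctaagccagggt
Chrnb1: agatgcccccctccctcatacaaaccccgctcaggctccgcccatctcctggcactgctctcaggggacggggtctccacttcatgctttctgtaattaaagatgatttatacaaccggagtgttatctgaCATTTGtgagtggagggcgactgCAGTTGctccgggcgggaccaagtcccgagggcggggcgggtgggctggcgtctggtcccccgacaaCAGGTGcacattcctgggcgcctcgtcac

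Of the 10 genes, 6 had a window in that table (Chrna1, Chrnb1, Chrne, Musk, Dok7 and Agrn), and with alternative starts they made 8 windows. An E-box was in 6 of the 8 windows, and 66.2% of all 32851 windows of the same length hold at least 1. The N-box was in 1 of the 8, that of Chrne, at 76 to 71 bases before the RefSeq start, where 12.0% of all windows hold it. The gene positions given further below are those of GENCODE. By these, Chrne and Chrnb1 start inside their printed windows, at 70619216 and 69795943, so distances from those starts are shorter. The D-box of E4BP4 and the related PAR bZIP factors, searched on both strands as TTATGTAA or TTACGTAA, was in 0 of the 8 windows and in 0.931% of all windows. A match describes the letters alone, and a window without one says only that those letters are not in it.

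In units of 1e+06 recovered reads, the libraries held 13.1 to 15.8 in TG ZT12, 17.7 to 20.2 in WT ZT12, 10.4 to 11.5 in TG ZT0 and 9.21 to 13.1 in WT ZT0, so that depth differed between the times and, at ZT12, between the genotypes. The members were read from 49 reads (Ncam1 in its lowest library) to 712 reads (Rapsn in its highest). A pair of libraries stood apart. WT ZT0 replicate 2 had a median correlation of 0.946 with the others, against 0.975 to 0.985 for the rest, and TG ZT12 replicate 1 had a median TPM of 4.96 over all genes, against 9.26 in WT ZT0 replicate 2. The 8 markers of muscle fibres were all present and summed to 92689 to 106695 TPM, led by Acta1, skeletal muscle actin. None of the 8 motor neuron markers was in the TPM table, and 7 of 10 Schwann cell markers were. Nfil3 in muscle, which does not test a liver transgene, ran from 7.96 to 20.9 TPM in TG ZT12, 7.40 to 14.0 TPM in WT ZT12, 13.6 to 20.3 TPM in TG ZT0 and 15.95 to 18.7 TPM in WT ZT0.

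Over the 12 libraries the members covered a wide range of abundance, in TPM, which is per length of transcript. Rapsn was the most abundant at 16.7 ± 1.49 TPM, followed by Chrnb1 at 11.3 ± 1.53, Chrne at 7.08 ± 1.21, Dok7 at 5.35 ± 1.495, Musk at 4.84 ± 1.79, Chrna1 at 2.94 ± 0.377, Colq at 2.94 ± 0.767, Agrn at 1.70 ± 0.534 and Ncam1 at 0.9995 ± 0.173 TPM (SD, n = 12). Rapsn stood at percentile 74.8 of the 10475 listed genes by mean TPM, and Ncam1 at percentile 1.54, where the list itself starts at 1.0 TPM in WT ZT0 replicate 1. Rapsn was above Chrnb1, and Chrnb1 above Chrne, in 12 of 12 libraries, and Chrne was above Dok7, and Musk above Chrna1, in 11 of 12. Dok7 was above Musk in 8 of 12 libraries and Chrna1 above Colq in 7 of 12, so these neighbours do not differ beyond their spread. Colq was above Agrn, and Agrn above Ncam1, in 12 of 12 libraries.

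**Figure D1:**
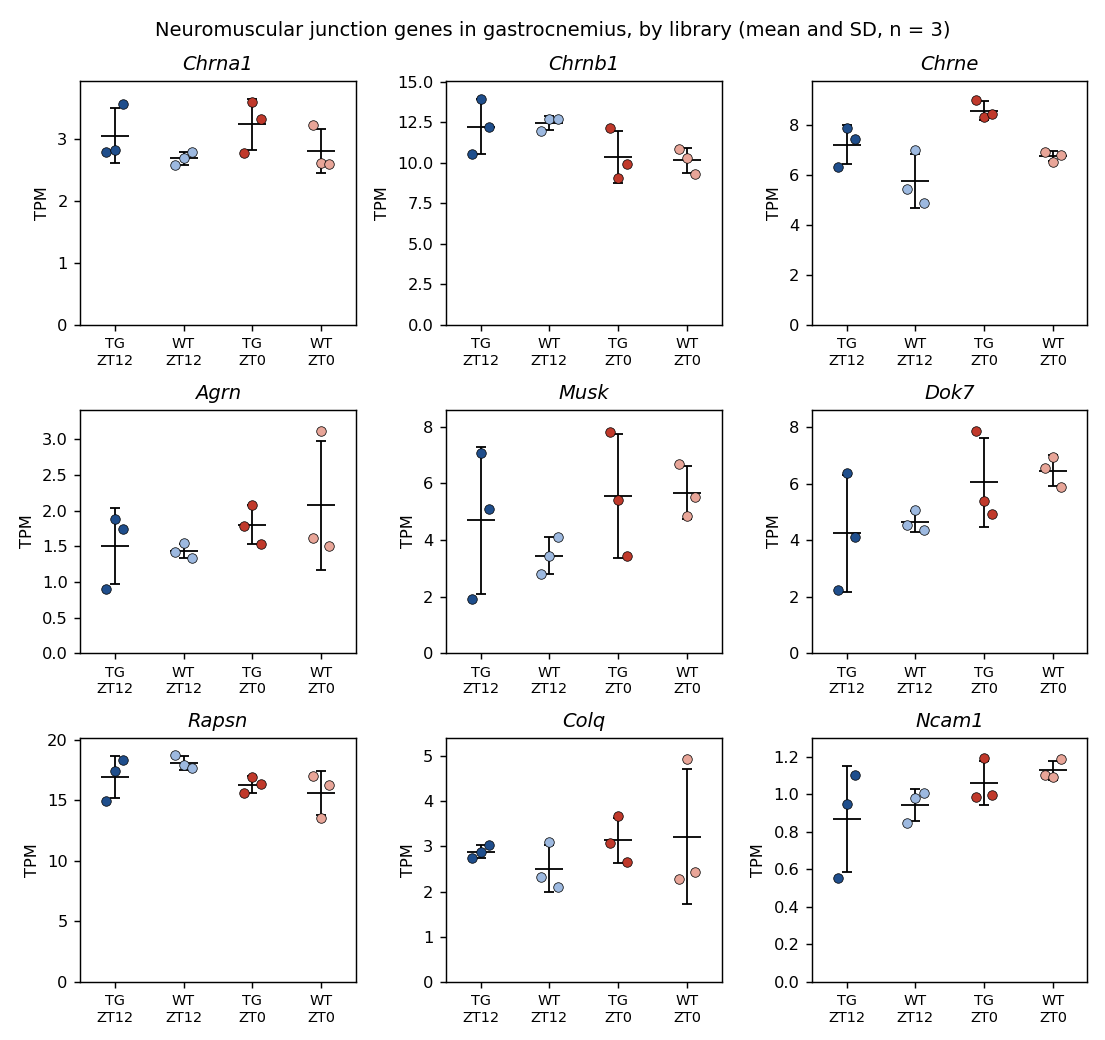
TPM of the 9 measured neuromuscular junction genes in each of the 12 libraries, by group, with the mean (wide line) and SD (bars) of 3 libraries; each vertical axis starts at 0. At ZT0 no TG library is below 8.31 TPM of Chrne and no WT library above 6.92 TPM, and Musk and Dok7 have their lowest values in TG ZT12 replicate 1.

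TG muscle was set against WT muscle to see whether a liver transgene goes with a difference in junction transcripts. No member differed by the test. Differences are given as log2 of TPM + 1, a scale that understates the change of low genes, with Benjamini-Hochberg adjusted p-values over the 10415 genes tested in a limma fit. At ZT12, at ZT0 and over both times, 0 of 9 members were called, and the share called over all genes was 0% each time, with 99, 117 and 166 genes at an unadjusted p under 0.05. The median difference of the 9 members was 0.02 at ZT12, 0.02 at ZT0 and -0.01 over both times, against -0.07, -0.10 and -0.09 for all genes. The medians of all genes hung on single libraries, at 0.04 at ZT12 without TG ZT12 replicate 1, 0.02 at ZT0 without WT ZT0 replicate 2 and 0.03 over both times without both. With median-of-ratios scaling in place of the TPM scale, the median of all genes over both times was -0.002, and the differences of Chrnb1, Rapsn and Agrn over both times, below 0 on the TPM scale, were 0.09, 0.08 and 0.02. The member farthest from 0 was Chrne, at 0.30 on the TPM scale and 0.39 with that scaling.

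Chrne encodes the epsilon subunit, which replaces the fetal gamma subunit in the receptor of the adult junction (chromosome 11, 70614883 to 70619216, minus strand, GRCm38; ENSMUSG00000014609). At ZT12 its level was 6.34, 7.87 and 7.44 TPM in TG libraries and 5.43, 6.99 and 4.90 TPM in WT libraries. In the ZT0 libraries the level was 8.998, 8.31 and 8.43 TPM in TG libraries and 6.92, 6.525 and 6.79 TPM in WT libraries. All TG ZT0 libraries were above all WT ZT0 libraries, while at ZT12 the groups overlapped through WT replicate 2 alone. Of all genes tested, 1.4% had every TG library above every WT library at ZT0 and 0.528% at ZT12. Chrne was 1 of 9 members to do so at ZT0, and 0 of 9 did at ZT12. In 0 of 9 members were all TG libraries below all WT libraries at either time, a placing of 4.26% of all genes at ZT12 and 3.22% at ZT0. Over both times the log2 difference was 0.30 (SE 0.09, 95% interval 0.09 to 0.50), with a limma p of 0.00788 and an adjusted p of 0.929. It was 0.29 (SE 0.14) at ZT12, with an adjusted p of 0.9997, and 0.31 (SE 0.14) at ZT0, with an adjusted p of 0.998. These values rest on 122 to 227 reads a library, and counting alone gives Chrne an SD of 0.0951 on this scale, where the SD within groups was 0.137.

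Chrna1 encodes the alpha subunit, which binds acetylcholine (chromosome 2, 73563215 to 73580338, minus strand; ENSMUSG00000027107). Its level was 2.78, 2.81 and 3.56 TPM in TG ZT12 libraries against 2.58, 2.68 and 2.79 TPM in WT ZT12 libraries. The ZT0 values were 2.77, 3.59 and 3.32 TPM in TG libraries against 3.22, 2.60 and 2.60 TPM in WT libraries. The groups overlapped at both times, and the TG against WT difference over both times was 0.14 (95% interval -0.07 to 0.35; limma adjusted p = 0.929).

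Chrnb1 encodes the beta subunit, through which rapsyn holds the receptor (chromosome 11, 69784036 to 69795943, minus strand; ENSMUSG00000041189). Its level was 10.5, 13.9 and 12.2 TPM in TG ZT12 libraries against 12.0, 12.7 and 12.7 TPM in WT ZT12 libraries. At ZT0 its level was 12.2, 9.05 and 9.93 TPM in TG libraries against 10.9, 10.3 and 9.30 TPM in WT libraries. TG libraries lay on both sides of the WT libraries at each time, and the difference over both times was -0.01 (limma adjusted p = 0.992).

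The receptor of adult muscle also needs the delta subunit, Chrnd (chromosome 1, 87190607 to 87200070, plus strand; ENSMUSG00000026251). The authors' deposited tables of each time hold per-library values on a log2 scale. They list Chrnd at -1.57 in every library at ZT0, the lowest of the members, and at 0 in every library at ZT12. At ZT0 the authors' deposited table gives Chrnd a log2 fold of 0.012 for TG over WT with a p of 0.493. Chrng, the fetal gamma subunit that denervated muscle makes again, was listed at 0 in all 12 libraries of those tables. A 0 in those tables does not show that no reads were found, since 3 genes with TPM above 0 in all 6 ZT12 libraries are also listed at 0 at ZT12.

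Set against the beta subunit within each library, the epsilon subunit separated the TG from the WT libraries at both times. The ratio of Chrne TPM to Chrnb1 TPM was 0.603, 0.564 and 0.608 in TG ZT12 libraries and 0.453, 0.551 and 0.385 in WT ZT12 libraries. At ZT0 it was 0.740, 0.918 and 0.849 in TG libraries and 0.638, 0.631 and 0.730 in WT libraries. TG and WT did not overlap at either time, and neither did ZT12 and ZT0 in either genotype. The ratio was chosen after its values were seen and is a description with no test. Of the 36 ratios among the 9 members, 3 did not overlap between TG and WT at ZT12, 4 did not at ZT0, and 2 did not at both times in the same direction, those of Chrne to Chrnb1 and of Chrne to Rapsn. Both hold Chrne, so they are not separate observations. Ratios of genes outside the members were not counted, so no share over all genes stands beside these counts. Between the times, 5 of the 36 ratios did not overlap in TG, 15 in WT and 5 in both genotypes in the same direction. These ratios share genes too, so they are not separate observations. In WT muscle Chrnb1, Rapsn, Musk, Dok7 and Ncam1 each did not overlap between the times by themselves. Against Chrna1 the picture differed, with a ratio of Chrne of 2.39 ± 0.368 in TG ZT12, 2.16 ± 0.429 in WT ZT12, 2.70 ± 0.487 in TG ZT0 and 2.42 ± 0.242 in WT ZT0 (SD, n = 3 each), where the groups overlapped. As a share of the summed TPM of Chrna1, Chrnb1 and Chrne, Chrne took 32.0 to 32.3% in TG ZT12, 24.0 to 31.3% in WT ZT12, 37.6 to 39.7% in TG ZT0 and 32.98 to 36.3% in WT ZT0.

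**Figure D2:**
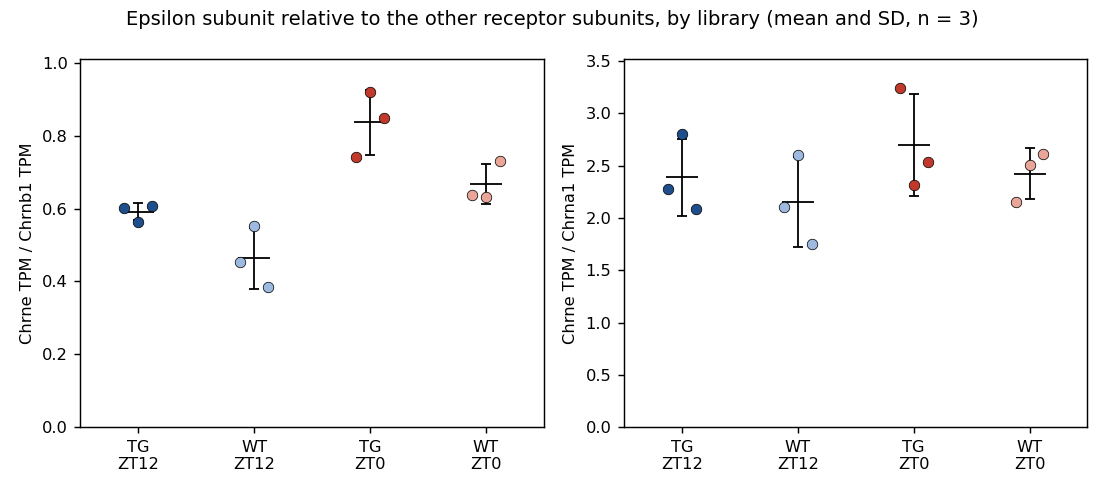
Ratio of Chrne TPM to Chrnb1 TPM (left) and to Chrna1 TPM (right) in each library, by group, with the mean (wide line) and SD (bars) of 3 libraries. On the left the TG libraries lie above the WT libraries at both times, and the lowest values are those of WT ZT12 at 0.385 to 0.551.

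Agrn encodes agrin, a heparan sulfate proteoglycan whose nerve form starts receptor clustering and whose other forms are made by muscle and other cells (chromosome 4, 156165290 to 156197488, minus strand; ENSMUSG00000041936). Its level was 0.898, 1.88 and 1.74 TPM in TG ZT12 libraries against 1.42, 1.54 and 1.34 TPM in WT ZT12 libraries. In the ZT0 libraries the level was 1.79, 2.08 and 1.53 TPM in TG libraries against 1.61, 3.11 and 1.498 TPM in WT libraries. The lowest and the highest value belong to TG ZT12 replicate 1 and WT ZT0 replicate 2, the libraries that stood apart, and the groups overlapped at both times. The TG against WT difference over both times was -0.04 (95% interval -0.36 to 0.28; limma adjusted p = 0.952), and without those libraries it was 0.17 (adjusted p = 0.846).

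Musk encodes MuSK, the receptor tyrosine kinase that agrin activates through LRP4 (chromosome 4, 58285960 to 58374303, plus strand; ENSMUSG00000057280). Its level was 1.91, 7.06 and 5.10 TPM in TG ZT12 libraries against 2.80, 3.43 and 4.095 TPM in WT ZT12 libraries. The ZT0 values were 7.82, 5.41 and 3.42 TPM in TG libraries against 6.66, 4.84 and 5.52 TPM in WT libraries. In both comparisons the TG libraries reached below and above all WT libraries. Musk had the largest spread of the members, an SD within groups of 0.477 on the log2 scale, at percentile 92.4 of all genes and 6.31 times what counting alone gives. The TG against WT difference over both times was 0.09 (95% interval -0.42 to 0.59; limma adjusted p = 0.943).

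Dok7 encodes the adaptor that binds MuSK inside the fibre and keeps it active (chromosome 5, 35056766 to 35087839, plus strand; ENSMUSG00000044716). Its level was 2.245, 6.36 and 4.13 TPM in TG ZT12 libraries against 4.54, 5.07 and 4.35 TPM in WT ZT12 libraries. At ZT0 its level was 7.85, 5.40 and 4.91 TPM in TG libraries against 6.55, 6.95 and 5.87 TPM in WT libraries. As for Musk, the TG libraries reached below and above all WT libraries at both times, and the difference over both times was -0.14 (95% interval -0.52 to 0.23; limma adjusted p = 0.929), or -0.002 without TG ZT12 replicate 1 and -0.26 without TG ZT12 replicate 2. Its SD within groups was 0.341, at percentile 78.3 of all genes and 4.04 times that of counting alone.

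Rapsn encodes rapsyn, the scaffold that binds the receptor on its inner side (chromosome 2, 91035620 to 91045729, plus strand; ENSMUSG00000002104). Its level was 14.95, 17.4 and 18.3 TPM in TG ZT12 libraries against 18.7, 17.9 and 17.6 TPM in WT ZT12 libraries. At ZT0 it was 15.6, 16.9 and 16.3 TPM in TG libraries against 17.0, 13.5 and 16.3 TPM in WT libraries. The groups overlapped at both times, the SD within groups of 0.115 was the smallest of the members, and the difference over both times was -0.02 (95% interval -0.20 to 0.16; limma adjusted p = 0.958).

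Colq encodes the collagen tail that anchors acetylcholinesterase, the enzyme that breaks down acetylcholine, in the synaptic cleft (chromosome 14, 31523082 to 31591343, minus strand; ENSMUSG00000057606). Its level was 2.75, 2.875 and 3.04 TPM in TG ZT12 libraries against 2.32, 3.105 and 2.10 TPM in WT ZT12 libraries. In the ZT0 libraries the level was 3.075, 3.67 and 2.66 TPM in TG libraries against 2.29, 4.94 and 2.43 TPM in WT libraries. WT ZT0 replicate 2 held the highest value, as for Agrn, and the groups overlapped at both times. The difference over both times was 0.09 (95% interval -0.23 to 0.41; limma adjusted p = 0.929), it was 0.22 without WT ZT0 replicate 2, and without the libraries that stood apart it was 0.24 (adjusted p = 0.846).

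Ncam1 encodes the neural cell adhesion molecule, which adult muscle keeps mainly at the junction and in satellite cells and which denervated fibres make along their length (chromosome 9, 49502136 to 49798925, minus strand; ENSMUSG00000039542). Its level was 0.553, 0.947 and 1.104 TPM in TG ZT12 libraries against 0.845, 0.978 and 1.005 TPM in WT ZT12 libraries. The ZT0 values were 0.988, 1.195 and 0.995 TPM in TG libraries against 1.103, 1.09 and 1.19 TPM in WT libraries. The groups overlapped at both times, with a difference over both times of -0.06 (95% interval -0.27 to 0.15; limma adjusted p = 0.929). Since the library kit keeps no strand, reads of Ncam1 and of the antisense gene Gm11149, which shares 417 of its 8664 exonic bases, cannot be told apart. The like holds for 4 of 1802 bases of Rapsn with the opposite Gm13778 and, on the same strand, for 199 of 3803 bases of Colq with Gm49387.

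ZT12 was set against ZT0 to compare lights off with lights on. The members were again not called, but some of them were apart between the times in the WT libraries. In TG muscle 0.154% of all genes were called and 0 of 9 members, in WT muscle 0.115% and 0 of 9, and over both genotypes 1.02% and 0 of 9. The median difference of the members over both genotypes was -0.15, with 2 of 9 higher at ZT12, against a median of -0.03 over all genes, of which 40.6% were higher. That median of all genes was 0.01 without TG ZT12 replicate 1, 0.03 without WT ZT0 replicate 2 and 0.09 without both. In WT muscle the ZT12 libraries of Chrnb1 and Rapsn were all above the ZT0 libraries, where 5.62% of all genes were so placed. Those of Musk, Dok7 and Ncam1 were all below, where 5.2% of all genes were. Since the TPM table lists genes at 1.0 TPM or more in WT ZT0 replicate 1, a gene as low as Ncam1 is listed through a WT ZT0 library, which favours this placing for it. In TG muscle 0 members lay wholly above, beside 3.21% of all genes, and 1 lay wholly below, Chrne, beside 3.87%.

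Dok7 and Musk had the differences between the times that were farthest from 0 over both genotypes. The level of Dok7 was 4.24 ± 2.06 TPM in TG ZT12 and 4.66 ± 0.371 TPM in WT ZT12, against 6.05 ± 1.57 TPM in TG ZT0 and 6.46 ± 0.544 TPM in WT ZT0 (SD, n = 3 each). The WT groups did not overlap and the TG groups did. The log2 difference over both genotypes was -0.44 (SE 0.17, 95% interval -0.81 to -0.07), with a limma p of 0.0236 and an adjusted p of 0.492, and it was -0.48 in TG and -0.40 in WT muscle. Without TG ZT12 replicate 1 and WT ZT0 replicate 2 it was -0.26 over both genotypes (limma adjusted p = 0.253), where Chrnb1 at 0.30 was farther from 0. In TG muscle it ran from -0.77 without TG ZT12 replicate 2 to -0.18 without TG ZT12 replicate 1.

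Musk lay in the same direction, at 4.69 ± 2.60 TPM in TG ZT12 and 3.44 ± 0.648 TPM in WT ZT12 against 5.55 ± 2.20 TPM in TG ZT0 and 5.67 ± 0.923 TPM in WT ZT0 (SD, n = 3 each). Its log2 difference was -0.43 over both genotypes (SE 0.23; limma adjusted p = 0.828), -0.27 in TG and -0.59 in WT muscle. Over both genotypes it was -0.26 without TG ZT12 replicate 1, alone or with WT ZT0 replicate 2. Without TG ZT12 replicate 1 the difference in TG muscle turned to 0.16, so its direction there rests on that library.

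Chrnb1 lay the opposite way, at 12.2 ± 1.71 TPM in TG ZT12 and 12.5 ± 0.416 TPM in WT ZT12 against 10.4 ± 1.60 TPM in TG ZT0 and 10.2 ± 0.789 TPM in WT ZT0 (SD, n = 3 each). Its log2 difference was 0.25 over both genotypes (SE 0.09, 95% interval 0.04 to 0.45), with a limma p of 0.0207 and an adjusted p of 0.451. The WT groups did not overlap and the TG groups did. Chrne was lower at ZT12, with a log2 difference of -0.22 (SE 0.09, 95% interval -0.42 to -0.01), a limma p of 0.0401 and a limma adjusted p of 0.625. The epsilon and beta subunits of the same receptor thus had differences of opposite sign between the times, in TG muscle (-0.23 and 0.22) and in WT muscle (-0.21 and 0.27). The other members had differences over both genotypes of 0.13 for Rapsn, -0.05 for Chrna1, -0.24 for Agrn, -0.15 for Colq and -0.14 for Ncam1, with limma adjusted p-values of 0.899 to 0.988. Without WT ZT0 replicate 2, Agrn was at -0.13, Colq at -0.02 and Rapsn at 0.08, and without TG ZT12 replicate 1 Ncam1 was at -0.08. Within 1 genotype, Chrnb1 in TG was at 0.13 without TG ZT12 replicate 2, and Chrne ran in WT from -0.33 without WT ZT12 replicate 2 to -0.11 without WT ZT12 replicate 3, and in TG was at -0.15 without TG ZT12 replicate 1.

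The interaction asks whether the difference between the times was the same in TG as in WT muscle. It was called for 0 of 9 members and for 0% of all genes, of which 69 had an unadjusted p under 0.05, and the members' values ran from -0.16 to 0.32 on the log2 scale.

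**Figure D3:**
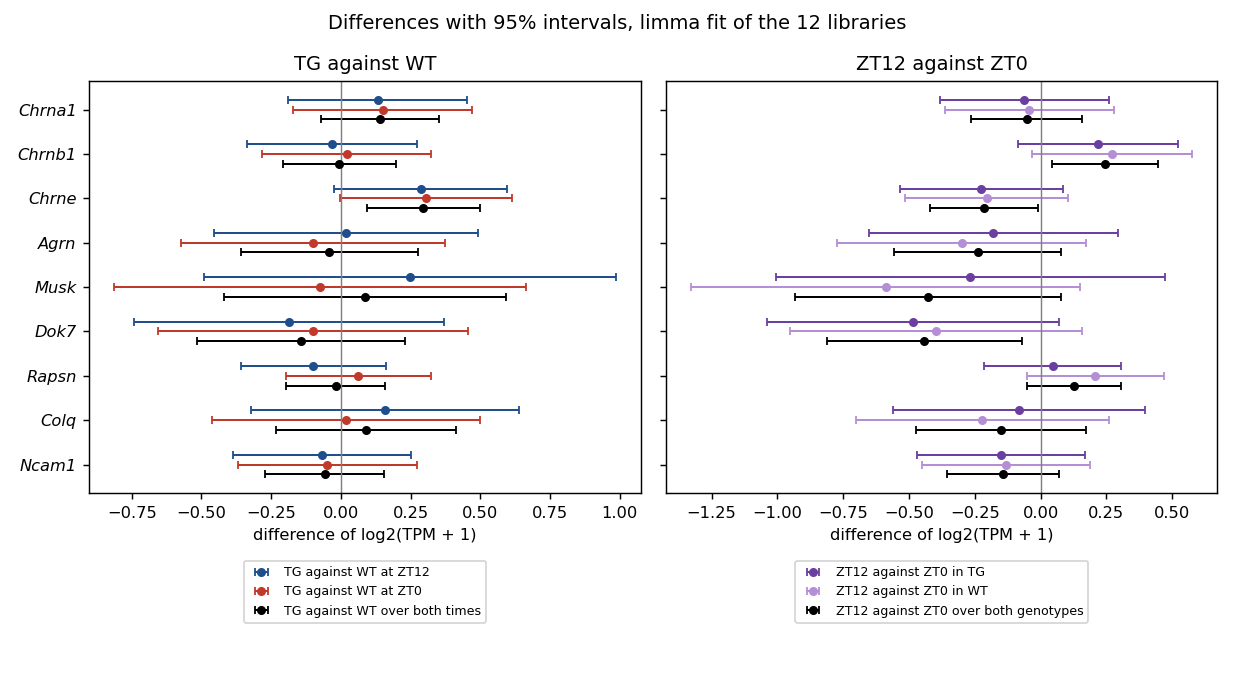
Difference of log2(TPM + 1) for each of the 9 genes, TG against WT on the left and ZT12 against ZT0 on the right, with 95% intervals of the limma fit; a positive value is higher in TG or at ZT12. On the left the interval of Chrne over both times (0.09 to 0.50) is the one that lies above 0, and on the right those of Chrnb1 (0.04 to 0.45), Chrne (-0.42 to -0.01) and Dok7 (-0.81 to -0.07) over both genotypes leave out 0 before adjustment.

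Libraries of the same group differed from each other in several members at once. After each group's mean was taken out, Musk and Dok7 had a Pearson correlation of 0.88 over the 12 libraries, Chrnb1 and Dok7 of 0.86, Chrnb1 and Musk of 0.78, and Agrn and Colq of 0.80, while Rapsn and Colq had -0.52. The 36 pairs ran from -0.52 to 0.88 with a median of 0.36. Values of a library share its depth and its TPM scale, so these describe the libraries. TG ZT12 replicate 1 was below the mean of its group in all 9 members and held the lowest of the 12 values in 4 of them, where 20.5% of all genes were above the group's mean in that library and the median deviation was -0.19 for the members and -0.23 for all genes. In that library Musk was 0.94, Dok7 0.93, Agrn 0.49 and Ncam1 0.36 below the gene's mean on the log2 scale. In WT ZT0 replicate 2, 4 of 9 members were above the group's mean against 84.7% of all genes, with Agrn 0.63 and Colq 0.62 above the gene's mean and Rapsn at its lowest of the 12 values.

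The summed TPM of the Schwann cell markers, the glia that ensheathe the nerve, also had its lowest value, 28.7 TPM, in TG ZT12 replicate 1. The next lowest, 58.2 TPM, was in TG ZT12 replicate 2. Of the 7 markers listed, 0 were higher at ZT12 than at ZT0 in TG muscle, beside 46.7% of all genes. In WT muscle 1 was, beside 39.8%. Against WT, 0 of 7 were higher in TG at ZT12 and 6 of 7 at ZT0, beside 23.4% and 23.5% of all genes. The range of this sum was 28.7 to 132 TPM in TG ZT12, 75.4 to 132 TPM in WT ZT12, 91.2 to 153.9 TPM in TG ZT0 and 103 to 129 TPM in WT ZT0, with Sox10, Ngfr and Cdh19 not among the genes listed. The satellite cell markers summed to 56.1 to 76.0 TPM in TG ZT12, 69.0 to 76.3 TPM in WT ZT12, 58.6 to 64.0 TPM in TG ZT0 and 53.0 to 72.9 TPM in WT ZT0, with 5 of 8 listed and Pax7, Myf5 and Calcr not listed. Markers of fibro-adipogenic cells, the stromal cells between the fibres, all 6 listed, summed to 723 to 941 TPM in TG ZT12, 939 to 990 TPM in WT ZT12, 805 to 1025 TPM in TG ZT0 and 724 to 839 TPM in WT ZT0. In WT muscle these sums did not overlap between ZT12 and ZT0, and in TG muscle they did. At ZT12, 6 of 6 of these markers were higher in WT muscle, beside 39.8% of all genes. In TG muscle 2 of 6 were, beside 46.7% of all genes. Slow fibre markers, all 8 listed, summed to 289 to 644 TPM in TG ZT12, 436 to 839 TPM in WT ZT12, 356 to 632 TPM in TG ZT0 and 184 to 744 TPM in WT ZT0. Of the slow fibre markers, 8 of 8 were higher at ZT12 than at ZT0 in WT muscle, beside 39.8% of all genes. In TG muscle 5 of 8 were, beside 46.7%. The sums overlapped between the times in WT muscle, where WT ZT0 replicate 3 was at 184 TPM beside 449 and 744 TPM in its group. Markers of 1 cell or fibre type come from the same libraries, so they are not separate observations. The part of these cells and fibres in the members' values was not tested.

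**Figure D4:**
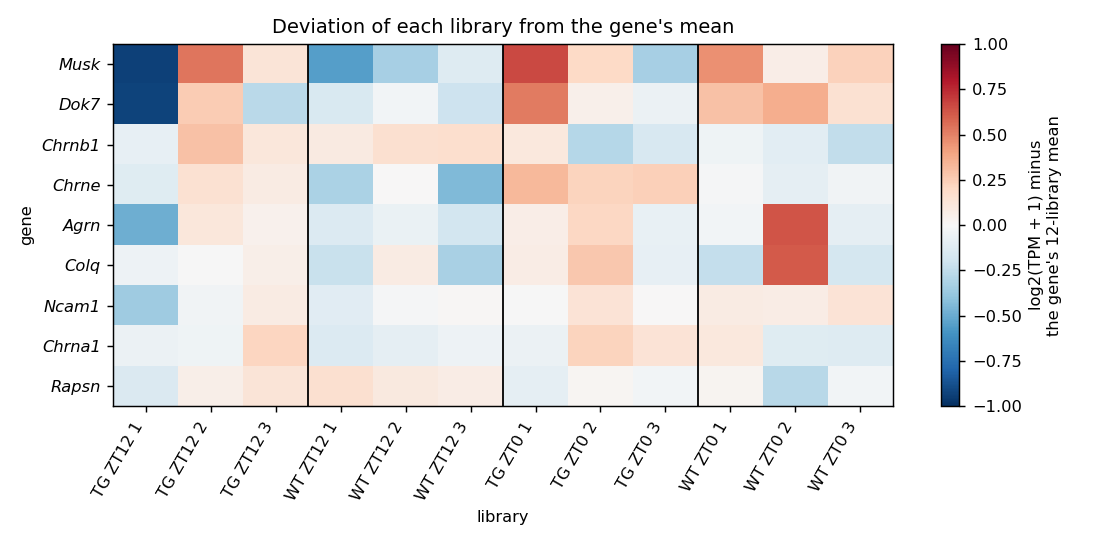
Deviation of each library (columns, by group) from the gene's mean over the 12 libraries, as log2(TPM + 1), for the 9 genes (rows); blue is below and red above the mean. TG ZT12 replicate 1 is 0.94 below the mean in Musk and 0.93 below in Dok7, and WT ZT0 replicate 2 is 0.63 above in Agrn and 0.62 above in Colq.

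Genes most like each member were taken as the 3 with the highest correlation over the 12 libraries after group means were taken out, among 6131 genes with a mean of at least 5 TPM. The highest of so many values are high by selection, and 8 residual degrees of freedom are left. Large deviations of single libraries enter them, as of TG ZT12 replicate 1 in Dok7 and WT ZT0 replicate 2 in Agrn. They describe the libraries, and shared regulation was not tested. For Dok7 they were Lpin1, Cab39 and Slc2a4, each at 0.98. Slc2a4 is the insulin-regulated glucose transporter GLUT4. For Musk they were Sgsm3 at 0.96, Pfkfb4, a regulator of glycolysis, at 0.96, and Slc16a3, a lactate transporter, at 0.95. Chrne was closest to Slc47a1 at 0.95, Dusp13 at 0.93 and Bpgm at 0.89, and Chrnb1 to Dlgap4 at 0.93, Ufd1l at 0.92 and Pcbp4 at 0.92. Among the genes closest to Agrn were Ap2b1 and Numa1, each at 0.99, and Colq was closest to Ino80e at 0.97, Elof1 at 0.96 and Hspa14 at 0.95. The likenesses were lower for Chrna1 (Slc39a13 at 0.84 and Ptov1 at 0.83), Rapsn (Ak1 at 0.85, Mospd1 at 0.85 and 4921524J17Rik at 0.83) and Ncam1 (Gm4841 at 0.90, Cav2 at 0.88 and Deptor at 0.87).

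Beyond the members, 5 lists of other junction genes were described. For TG against WT over both times, 16.2% of all genes were higher in TG on the TPM scale with a median of -0.09, an offset that median-of-ratios scaling takes away, and the counts of genes higher in each list are to be read beside it. Of the agrin and MuSK signalling list with the synaptic kinases, 11 of 15 genes were tested, led in abundance by Dnaja3, a partner of MuSK, at 41.2 TPM (31.1 to 48.3 over the 12 libraries). Its median difference was -0.14 for TG against WT over both times, with 1 of 11 higher, and -0.01 for ZT12 against ZT0, with 0 called in each. Of the scaffold and dystrophin-utrophin list, 13 of 14 were tested. The medians were -0.08 for TG against WT, with 5 of 13 higher, and -0.10 for ZT12 against ZT0, with 0 called. Of the synaptic matrix and acetylcholine breakdown list, 10 of 12 were tested, led by Lamb2, a laminin chain of the synaptic basal lamina, at 21.6 TPM, with medians of -0.05 (2 of 10 higher in TG) and -0.02 and 0 called. Of the synaptic transcription factors, 5 of 7 were tested, led by Gabpa, a subunit of the ETS factor GABP, at 7.22 TPM, with medians of -0.11 (1 of 5 higher in TG) and -0.02 and 0 called.

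The denervation-responsive list, 13 of 20 names tested and led by the myogenic factor Myf6 at 65.4 TPM, was the one with called genes. Its names hold Mitr beside Hdac9, and 19 of the 20 names are listed in the authors' deposited tables of each time. The list was chosen with earlier results of these data known, so its called genes are a description. For TG against WT over both times 0 of 13 were called, with a median of -0.08 and 3 of 13 higher. Between the times over both genotypes, 1 of 13 rose, 1 of 13 fell, and the median was -0.01, where 42 of the 10415 genes tested rose and 64 fell, 1.02% in all. Myod1, the myogenic factor MyoD that binds E-boxes and is also a gene of daily rhythm in muscle, had 6.60, 19.8 and 12.1 TPM in TG ZT12 and 6.76, 11.8 and 9.22 TPM in WT ZT12, against 27.1, 28.1 and 27.6 TPM in TG ZT0 and 22.9, 26.1 and 18.4 TPM in WT ZT0. It fell by 1.19 on the log2 scale at ZT12 (SE 0.20; limma adjusted p = 0.00925). The ZT12 and ZT0 groups did not overlap in WT or in TG muscle.

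Tnfrsf12a, the receptor Fn14 of the cytokine TWEAK, had 16.9, 36.5 and 17.6 TPM in TG ZT12 and 28.3, 33.5 and 30.4 TPM in WT ZT12, against 11.5, 9.49 and 6.62 TPM in TG ZT0 and 17.1, 9.63 and 6.76 TPM in WT ZT0. It rose by 1.34 on the log2 scale at ZT12 (SE 0.22; limma adjusted p = 0.00917), and again the times did not overlap in either genotype. Chrna1, Musk and Ncam1, which loss of innervation is also known to raise, were not called in any comparison.

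The authors' deposited tables of TG against WT at each time hold log2 folds of TG over WT made by their own pipeline. At ZT12 the authors' deposited table lists 9 of the 10 members at values other than 0, with folds of -0.01 to 0.03 and no p under 0.558. At ZT0 the authors' deposited table lists all 10 so, with folds of -0.002 to 0.04 and no p under 0.493. Chrne had the largest of these folds at both times in the authors' deposited tables, 0.0349 at ZT12 and 0.0383 at ZT0. Its 3 TG values lay above its 3 WT values at both times there. Those of Agrn did so at ZT12, although its TPM groups overlapped. The share of all genes so placed there is not given here. Those per-library values are on another scale than the TPM values, so the folds cannot be set beside the TPM differences in size. Ncam1 and Lrp4 are among 876 genes at ZT12 and 558 genes at ZT0 that share 1 value in each library of the authors' deposited tables, so those values tell nothing of Ncam1 alone.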

How the data were processed

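Poly(A) RNA was sequenced with an unstranded kit, per the labels' protocols, and mm10, STAR, HOMER 4.11.1, bcl2fastq and DESeq2 are listed per the submitters' processing notes. The authors deposited TPM values per gene for the 12 libraries, and no gene of that table is below 1.0 TPM in WT ZT0 replicate 1. Per the file headers, the authors' deposited tables of each time were made with HOMER and hold a log2 value per library, headed FPKM, with the authors' log2 fold and p-value per gene. Their fold is headed WT against TG, and its values run TG over WT.

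The members and lists were chosen with earlier results of these data known. All 9 members of the TPM table are named, and of each list the called genes and the most abundant one, and some genes that these rules name are not reported here. The values log2(TPM + 1) of genes reaching 1 TPM in 3 or more libraries were fitted with limma 3.58.1 (trend) in R 4.3.3, with 4 group means over the 12 libraries, or with genotype and time as additive terms for comparisons over both. Calls needed a Benjamini-Hochberg adjusted p under 0.05. The script was tested on simulated data. Depth comes from TPM times transcript length, which gave whole reads (within 0.1 read, judged under 500 reads). Fits were also made with median-of-ratios scaling, other filters and pseudocounts, the groups alone, a replicate block, limma-voom on recovered reads, and libraries left out. Gene positions are from GENCODE M21 (GRCm38, the mm10 build). Tables were made with pandas 2.3.3 and numpy 2.4.6 in Python 3.11.15, and figures with matplotlib 3.10.9.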

Additional observations from a re-analysis of the deposited data

How the results depend on the processing

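Over up to 21 alternatives per comparison, limma-voom included, 0 members were called in any comparison, with a smallest limma adjusted p of 0.0742 for Chrnb1 between the times (log2 difference 0.30) without the pair of libraries that stood apart (TG ZT12 replicate 1 and WT ZT0 replicate 2). Chrne for TG against WT over both times ran from 0.26 to 0.35 with each library left out and was 0.20 with a pseudocount of 5, 0.37 with limma-voom on recovered reads and 0.39 with median-of-ratios scaling. Differences near 0 turned for TG against WT over both times: with median-of-ratios scaling Chrnb1 to 0.0882, Rapsn to 0.0780 and Agrn to 0.0224, with limma-voom Chrnb1 to 0.0233 and Rapsn to 0.00755, and without that pair Chrnb1 to 0.0486, Dok7 to 0.0339, Agrn to 0.168 and Ncam1 to 2.34e-05. Without that pair Musk between the times in TG turned to 0.16. With each library left out in turn, the same comparison of TG with WT ran from -0.0571 to 0.0401 for Chrnb1, -0.0697 to 0.26 for Musk, -0.0684 to 0.0267 for Rapsn and -0.10 to 0.0678 for Agrn, and Musk between the times in TG from -0.58 to 0.16. Beyond what was left out, the cause was not tested.

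Myod1 (-1.35 to -0.95) and Tnfrsf12a (1.08 to 1.47) were called between the times over both genotypes in 20 of 20 alternatives. Over all genes, TG against WT had at most 2 calls in any setting, and calls between the times moved by more than 1.5 times. Over both genotypes they were 106, 233 with median-of-ratios scaling, 217 with limma-voom, 464 without the pair of libraries, 160 without TG ZT12 replicate 1 and 70 without WT ZT12 replicate 2. In TG they were 16, 31 with median-of-ratios scaling, 28 with limma-voom, 3 with the groups alone, 71 without the pair, and 6 to 21 with 1 library left out. In WT they were 12, 55 with median-of-ratios scaling, 56 with limma-voom, 72 without the pair, and 4 to 35 with 1 library left out. Replicate numbers did not pair the libraries (18 same-numbered pairs, correlation -0.35 to 0.29, median 0.06, and 6 of 12 libraries closest to their own number). With a replicate block 0 members were called, Chrne for TG against WT over both times was 0.30 (limma adjusted p = 0.876), and all-gene calls between the times over both genotypes were 130. On the scale of log2(TPM + 1), which shrinks the counting error of low genes, that of Chrne was the largest of the members. It was 0.0951 against an SD of 0.137 within groups. Ncam1 (49 to 119 reads) and Colq (72 to 196 reads) were read from fewer reads than Chrne (122 to 227 reads).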
